A study of Mus musculus with 22 samples.

Results

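The transcripts described here encode the main filaments of the liver cell skeleton: the alpha tubulins Tuba1a, Tuba1b and Tuba1c, the beta tubulins Tubb2a, Tubb2b and Tubb6, the cytoplasmic actins Actb and Actg1, the simple keratin Krt8, and vimentin (Vim). They were chosen by name, with earlier results of these data known. They are 10 genes of the 18716 rows in the deposited expression table, and all 10 passed the filter on low values. The study profiled whole livers of Fah-/- mice, which lack the last enzyme of tyrosine breakdown and are kept healthy with NTBC, a drug that blocks the pathway upstream. Its stated purpose was to compare global expression after YC was given to mice carrying transplanted hepatocytes. The D0 group held 7 Fah-/- livers at day 0, described in the labels as normal liver. The day 28 groups were Fah-/- mice transplanted with td-Hepatocytes and taken off NTBC, then given vehicle (8 livers) or YC (7 livers) until day 28. The labels do not spell out YC or td. Every host liver therefore carried the Fah-/- genotype. In day 28 livers, RNA of host cells and of any transplanted cells present was not separated. The labels do not say that the livers of a group came from separate animals, and p-values therefore measure only how far these libraries scatter.

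Microtubules are hollow polymers of alpha and beta tubulin pairs, and cells choose among several genes, called isotypes, for each side of the pair. Actin filaments form the cell cortex, and in hepatocytes they line the bile canaliculus. Among the intermediate filaments, hepatocytes make Krt8 paired with Krt18, while Vim is the filament of mesenchymal, endothelial and blood-derived cells. Healthy hepatocytes are known to have little of it.

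Values are RPKM, the reads of a gene per kilobase of transcript, corrected for the total of mapped reads, so levels of different genes can be set beside each other. Differences are on the log2(RPKM + 0.5) scale with their standard error (SE), positive where the first group named is higher. A gene is called where the limma p-value adjusted over 12537 tested genes (Benjamini-Hochberg) is under 0.05, and "rose" and "fell" are used of called genes. Read depth, estimated from the steps between low RPKM values, was 51 to 66.2 M reads in the D0 group, 51.1 to 71.8 M in the vehicle group and 50.1 to 82.7 M in the YC group.

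Some libraries stood apart before any comparison. Fah itself ranged from 21.1 to 38.7 RPKM in the D0 group, from 271 to 542 in the vehicle group and from 31.5 to 407 in the YC group. YC livers 6 and 7, at 41.3 and 31.5 RPKM, lay within or next to the D0 range. Transcripts of 4 Y-linked genes summed to at most 0.0454 RPKM in every D0 liver, to between 5.55 and 35.6 RPKM in every vehicle liver, to between 17.4 and 31.9 RPKM in YC livers 1 to 3, and to 0 in YC livers 4 to 7. The vehicle to D0 comparison therefore joined presence of Y-linked transcripts, transplantation, NTBC withdrawal and time, which cannot be told apart. For YC to vehicle and YC to D0, values from livers with, or without, Y-linked transcripts only are given for most differences of the 10 transcripts and their ratios. Vehicle liver 3 carried muscle transcripts: Acta1, the skeletal muscle actin, was at 1311 RPKM there and at 0.0182 to 0.975 RPKM in the other vehicle livers, and the tropomyosin Tpm2 was at 295 RPKM against 2.05 to 5.08. In the YC to vehicle comparison the median of all tested genes was shifted by 0.31 as deposited and by 0.01 after median-ratio scaling of the libraries, and the share of called genes that were higher went from 87.9% to 52.1%. In the YC to D0 comparison the same medians were 0.25 and -0.05, and the shares 77.1% and 47.4%. Values after this scaling are given for the 10 transcripts where it changed a call or a direction, and for the gene lists as counts.

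Across the 10 transcripts, 7 rose and 1 fell from vehicle to YC livers. Over all tested genes 44.6% were called higher and 6.14% lower in this comparison. After median-ratio scaling 5 of the 10 were called higher and 2 lower, beside 18.2% and 16.7% of all genes. The median difference of the 10 was 0.84 as deposited against 0.31 for all genes, and 0.50 against 0.01 after scaling. From D0 to vehicle livers 4 rose (28.2% of all genes did) and 4 fell (29.9% of all genes did), and the scaled counts were the same, beside 29.2% and 30.8% of all genes. From D0 to YC livers 5 rose and 0 fell, where 41.2% of all genes rose and 12.3% fell, and after scaling 4 rose and 0 fell, beside 25.8% and 28.6%. The 3 comparisons share their groups of livers, so they are not independent of each other, and their values are set side by side below.

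**Figure D1:**
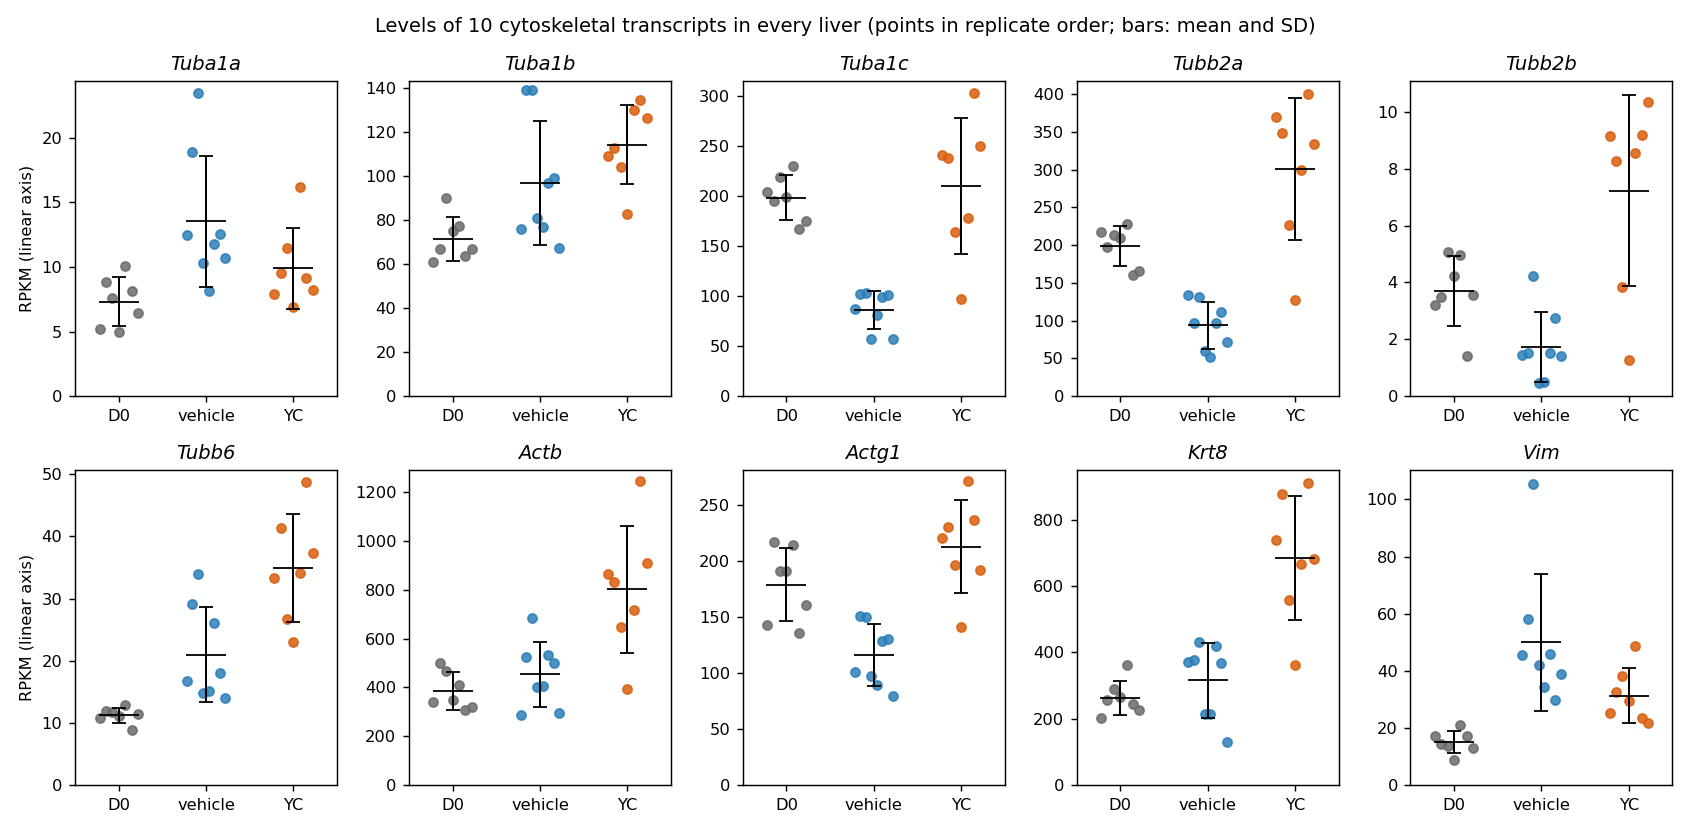
RPKM of the 10 transcripts in each of 22 livers (linear axes from 0, points in replicate order within D0, vehicle and YC, n = 7, 8 and 7), with the mean and SD of each group in black. Tuba1c, Tubb2a and Actg1 were lowest in vehicle livers, Tubb6 was lowest in D0 livers, Krt8 and Actb were highest in YC livers, and Vim was highest in vehicle livers, where 1 liver reached 106 RPKM.

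**Figure D2:**
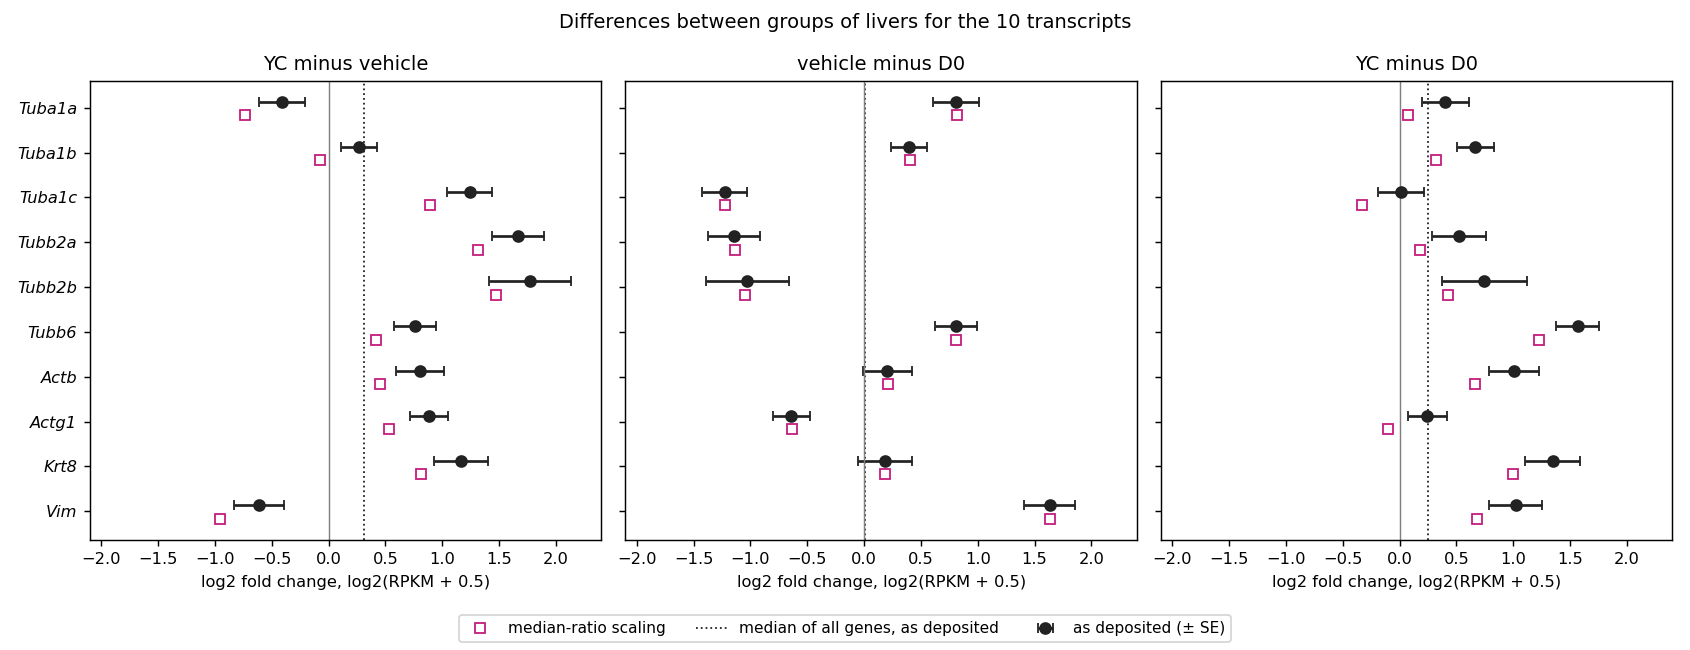
Log2 fold changes of the 10 transcripts in the 3 comparisons, as deposited with SE (filled circles) and after median-ratio scaling (open squares), with the median of all tested genes as a dotted line. In the YC to vehicle panel the scaled values lie to the left of the deposited ones for every transcript, and Tuba1b crosses 0, from 0.27 to -0.08.

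The promoters of 4 members are shown because they belong to genes with different patterns: the neighbours Tuba1b and Tuba1c on chromosome 15, Actg1 on chromosome 11 and Vim on chromosome 2. Each runs from 250 bases before to 50 bases after the RefSeq start (GRCm38.p6). The windows are Tuba1b chr15:98934341-98934640 (minus strand), Tuba1c chr15:99029641-99029940 (plus strand), Actg1 chr11:120348446-120348745 (minus strand) and Vim chr2:13574061-13574360 (plus strand). Windows of 7 of the 10 members were searched for motifs. Those of Actb, Tubb2b and Tubb6 were not searched. Capitals mark matches, on either strand, to the 7 motifs searched.
Tuba1b: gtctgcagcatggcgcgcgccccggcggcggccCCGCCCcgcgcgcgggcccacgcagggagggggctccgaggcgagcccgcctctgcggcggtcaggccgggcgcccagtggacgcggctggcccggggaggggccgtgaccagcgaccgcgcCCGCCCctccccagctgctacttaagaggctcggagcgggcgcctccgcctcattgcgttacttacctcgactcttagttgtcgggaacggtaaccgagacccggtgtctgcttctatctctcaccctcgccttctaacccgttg
Tuba1c: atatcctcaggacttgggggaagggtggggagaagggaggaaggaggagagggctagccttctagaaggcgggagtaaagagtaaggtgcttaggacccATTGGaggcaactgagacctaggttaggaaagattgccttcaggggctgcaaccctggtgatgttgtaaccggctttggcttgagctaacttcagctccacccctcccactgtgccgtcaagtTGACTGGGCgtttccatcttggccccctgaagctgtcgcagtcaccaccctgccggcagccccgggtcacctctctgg
Actg1: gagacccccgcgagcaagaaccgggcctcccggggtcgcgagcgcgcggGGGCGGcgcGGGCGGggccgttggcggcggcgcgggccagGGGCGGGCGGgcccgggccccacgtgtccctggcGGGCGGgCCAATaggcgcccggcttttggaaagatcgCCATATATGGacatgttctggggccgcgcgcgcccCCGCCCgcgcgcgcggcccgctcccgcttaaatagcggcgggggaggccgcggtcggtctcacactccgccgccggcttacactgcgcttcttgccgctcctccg
Vim: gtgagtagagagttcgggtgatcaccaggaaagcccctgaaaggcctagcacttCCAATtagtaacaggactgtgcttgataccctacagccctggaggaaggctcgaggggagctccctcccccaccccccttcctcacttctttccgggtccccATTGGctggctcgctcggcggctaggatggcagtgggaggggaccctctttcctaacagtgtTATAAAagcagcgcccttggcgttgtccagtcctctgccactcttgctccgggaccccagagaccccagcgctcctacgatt
The Actg1 window held a CArG box, the motif of serum response factor, at bases -90 to -81 from the start, a motif present in 1.63% of 32851 promoters of the same length. CCAAT was in 4 of the 7 members (Vim, Actg1, Tuba1a and Tuba1c) and in 37.4% of all promoters. TATAAA was in Vim, Tubb2a and Krt8 and in 13.6% of all. The GC box GGGCGG was in Actg1, Tubb2a, Tuba1a and Tuba1b and in 35.7% of all, and in Actg1 2 of its matches overlapped each other. TGACNNNGC, the core of the element bound by NRF2, was in Tuba1a and Tuba1c and in 12.4% of all. The letters TGANTCA (AP-1) and GGAATG (TEAD factors) were in none of the 7 windows and in 7.81% and 14.7% of all promoters. Tuba1b and Tuba1c shared no motif among those searched.

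The 3 Tuba1 genes lie together on mouse chromosome 15 (mm10), in one cluster but not in one pattern. Tuba1b (chr15:98931425-98934565) and Tuba1a (chr15:98949837-98953703) are on the minus strand, 15.3 kb apart, and Tuba1c (chr15:99029891-99038110) is on the plus strand, 76.2 kb beyond Tuba1a. Their messages are close copies: 65.6% of all 100-base windows of the Tuba1b transcript, 53.4% of those of Tuba1c and 49.2% of those of Tuba1a also occur in another gene's transcript. Nothing states how the authors' counting assigned such reads, and the split among the 3 is uncertain. The annotation also places the protein-coding model Gm49450 over Tuba1a and Tuba1b and an antisense transcript, Gm41396, over Tuba1b.

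Tuba1c was the most abundant alpha tubulin transcript in D0 and YC livers. In D0 livers it was between 167 and 230 RPKM (median 199), in vehicle livers between 57.4 and 104 (median 93.5) and in YC livers between 97.6 and 303 (median 238). Every vehicle liver was below every D0 liver (11.7% of tested genes had that order), and 1 YC liver, YC 4, reached down into the vehicle range. Tuba1c fell by 1.23 (SE 0.19, limma adjusted p = 1.37e-05) from D0 to vehicle livers, and was 1.24 (SE 0.19, limma adjusted p = 2.44e-05) higher in YC than in vehicle livers. The YC and D0 livers differed by 0.01 (SE 0.20, limma adjusted p = 0.963), or by -0.33 after median-ratio scaling (limma adjusted p = 0.131), so the sign of that difference was not settled. Among livers with Y-linked transcripts the rise under YC was 1.33 (SE 0.23).

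Tuba1b, the widely expressed alpha tubulin isotype, followed another course. Its level was 61.1 to 90.3 RPKM (median 66.8) in D0 livers, 67.3 to 139 (median 89.1) in vehicle livers and 82.7 to 135 (median 113) in YC livers. The groups overlapped throughout, with YC livers toward the top. Tuba1b was 0.67 (SE 0.16, limma adjusted p = 0.00133) higher in YC than in D0 livers, and 0.32 (limma adjusted p = 0.0779) after median-ratio scaling, which ended the call. Livers without Y-linked transcripts alone gave 0.71 (SE 0.17, limma adjusted p = 0.00487). From D0 to vehicle livers it rose by 0.40 (SE 0.16, limma adjusted p = 0.0333), a call lost when any one of D0 livers 1, 2, 6 and 7 or vehicle livers 2, 3 and 7 was left out (0.32 to 0.39). The YC to vehicle difference was 0.27 (SE 0.16, limma adjusted p = 0.155) as deposited, 0.21 among livers with Y-linked transcripts and -0.08 after scaling.

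Tuba1a, known best from developing neurons, was the scarcest of the 3. It was at 4.96 to 10 RPKM (median 7.62) in D0 livers, 8.13 to 23.5 (median 12.1) in vehicle livers and 6.87 to 16.2 (median 9.12) in YC livers. Vehicle liver 3, the library with muscle transcripts, held the highest value, and the groups overlapped. Tuba1a rose by 0.81 (SE 0.20, limma adjusted p = 0.00154) from D0 to vehicle livers and by 0.69 (limma adjusted p = 0.00359) without vehicle liver 3. Its YC to vehicle difference of -0.41 (SE 0.20, limma adjusted p = 0.0943) missed the threshold as deposited, was the same among livers with Y-linked transcripts (limma adjusted p = 0.214), and was called at -0.74 (limma adjusted p = 0.00342) after median-ratio scaling, at -0.50 without vehicle liver 5 and at -0.53 without YC liver 5. Against D0, YC livers differed by 0.40 (SE 0.21, limma adjusted p = 0.108).

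Of the other alpha tubulins, Tuba4a and Tuba8 also passed the filter. Tuba4a was at 180 ± 17.4 RPKM (SD, n = 7) in D0, 84.5 ± 20.1 (SD, n = 8) in vehicle and 181 ± 70.1 (SD, n = 7) in YC livers. It fell by 1.11 (limma adjusted p = 5.53e-05) from D0 to vehicle livers and was 1.02 (limma adjusted p = 0.000224) higher in YC than in vehicle livers. Tuba8 climbed from 1.64 ± 0.454 RPKM in D0 to 13 ± 7.33 in vehicle and 26.9 ± 7.60 in YC livers (SD over 7, 8 and 7 livers), with a YC to vehicle difference of 1.13 (limma adjusted p = 0.000483). Across the family, 5 of 8 alpha tubulins were tested. From vehicle to YC livers 3 rose and 0 fell, where 44.6% of all genes rose and 6.14% fell. The median of the 5 was 1.02, against 0.31 for all genes. After scaling 3 rose and 1, Tuba1a, fell, beside 18.2% and 16.7% of all genes.

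Because a ratio within a liver does not change with the scaling of the library, the make-up of the tubulin pool was compared directly, with exact permutation tests over livers (two-sided, adjusted over 21 tests). Tuba1c made up 69.2% to 75.5% of the summed Tuba1a, Tuba1b and Tuba1c RPKM in the D0 group, 38.6% to 49.8% in the vehicle group and 52.1% to 67.8% in the YC group. No 2 groups overlapped. The mean share in YC livers, 61.7% ± 6.39 (SD, n = 7), was 17.6 points above that in vehicle livers, 44.1% ± 4.83 (SD, n = 8, exact permutation adjusted p = 0.00109), and differed by -9.85 points from that in D0 livers, 71.6% ± 2.08 (SD, n = 7, exact permutation adjusted p = 0.00131). The raw p-values were the smallest these group sizes can give, 0.000155 and 0.000583. Within livers with Y-linked transcripts the YC to vehicle gap was 19.9 points, and within livers without them the YC to D0 gap was -11.6 points. Vehicle and D0 livers differed by -27.4 points (exact permutation adjusted p = 0.00109). Of all alpha tubulin RPKM, which includes Tuba4a, Tuba1c took 41.7% to 45.0% in D0, 24.7% to 33.8% in vehicle and 33.4% to 42.2% in YC livers. On that base the YC group overlapped both other groups, and differences were not tested. The split of reads among the 3 Tuba1 genes is uncertain, which limits both shares.

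**Figure D3:**
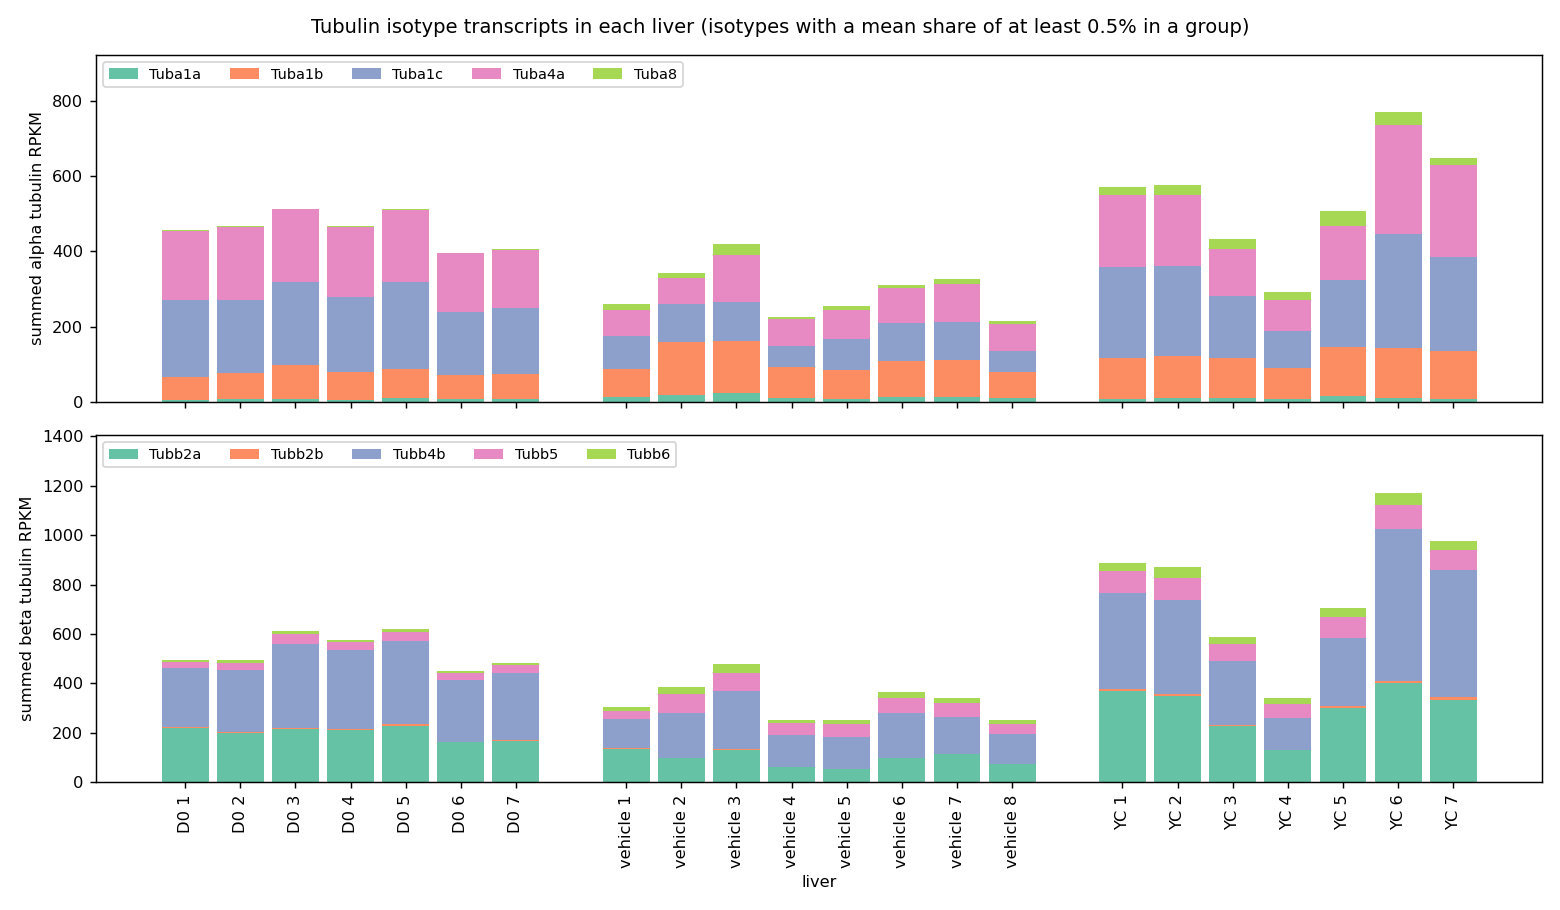
Summed RPKM of alpha tubulin (top) and beta tubulin (bottom) isotypes in each liver, stacked on linear axes from 0, for isotypes with a mean share of at least 0.5% in a group. Bars are lower in vehicle livers and in YC 4 than in the other YC livers, and Tuba1b, Tubb5 and Tubb6 take larger shares of the vehicle bars.

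Tubb2a and Tubb2b, 2 beta tubulins known chiefly from nervous tissue, had the largest YC to vehicle differences of the 10 transcripts as deposited. Tubb2a (chr13:34074274-34078007) and Tubb2b (chr13:34126748-34130466) sit 48.7 kb apart on the minus strand of chromosome 13. They share 36.9% and 27.7% of their 100-base windows with other genes, mainly with each other, so their split is uncertain. Tubb2a was at 161 to 228 RPKM (median 210) in D0 livers, at 51.6 to 134 (median 96.6) in vehicle livers and at 128 to 400 (median 334) in YC livers. All vehicle livers were below all D0 livers (11.7% of tested genes had that order), and only YC 4 fell within the vehicle range. Tubb2a was 1.66 (SE 0.23, limma adjusted p = 5.37e-06) higher in YC than in vehicle livers, and 1.78 (SE 0.29) higher among livers with Y-linked transcripts. From D0 to vehicle livers it fell by 1.14 (SE 0.23, limma adjusted p = 0.000173).

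Tubb2b ran at a far lower level with a similar order of groups. It was at 1.42 to 5.05 RPKM (median 3.57) in D0 livers, 0.456 to 4.22 (median 1.48) in vehicle livers and 1.26 to 10.3 (median 8.55) in YC livers. YC 4 and YC 3, at 1.26 and 3.85 RPKM, lay within the vehicle range, and the other YC livers were at 8.28 or above. It rose by 1.77 (SE 0.36, limma adjusted p = 0.000393) from vehicle to YC livers and fell by 1.03 (SE 0.36, limma adjusted p = 0.0189) from D0 to vehicle livers. Among livers with Y-linked transcripts the YC to vehicle rise was 1.86 (SE 0.43). Against D0, the YC livers differed by 0.74 (SE 0.38, limma adjusted p = 0.0984) for Tubb2b and by 0.52 (SE 0.23, limma adjusted p = 0.0633) for Tubb2a. Without YC 4 both were called, at 1.07 and 0.71, and among livers without Y-linked transcripts neither was, at 0.67 and 0.44.

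Tubb6, a minor beta tubulin isotype, stepped up in each group. It lies at chr18:67390717-67402749 on the plus strand and shared no 100-base window with another gene. Its level was 8.78 to 12.8 RPKM (median 11.4) in D0 livers, 13.9 to 33.9 (median 17.3) in vehicle livers and 23.0 to 48.7 (median 34.0) in YC livers. Every day 28 liver was above every D0 liver, an order found for 11.2% of tested genes with vehicle and for 19.4% with YC livers, while vehicle and YC livers overlapped. Tubb6 rose by 0.81 (SE 0.18, limma adjusted p = 0.000673) from D0 to vehicle livers and by 1.57 (SE 0.19, limma adjusted p = 3.15e-07) from D0 to YC livers, or 1.59 among livers without Y-linked transcripts. The YC to vehicle rise of 0.76 (SE 0.18, limma adjusted p = 0.00159) was 0.73 among livers with Y-linked transcripts, and was no longer called after median-ratio scaling, at 0.42 (limma adjusted p = 0.0616).

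As a share of all beta tubulin RPKM, Tubb6 was highest in vehicle livers. It took 1.91% to 2.4% in the D0 group, 5.32% to 7.54% in the vehicle group and 3.76% to 6.76% in the YC group. Its mean share of 6.23% ± 0.883 (SD, n = 8) in vehicle livers was 4.12 points above D0 (exact permutation adjusted p = 0.00109), with no overlap. YC livers, at 4.66% ± 1.02 (SD, n = 7), differed by -1.57 points from vehicle livers (exact permutation adjusted p = 0.0163) and were 2.55 points above D0 livers (exact permutation adjusted p = 0.00131). Among livers with Y-linked transcripts the YC to vehicle difference was -1.88 points (exact permutation adjusted p = 0.0212). It was -1.3 points without YC livers 6 and 7, whose Fah was near the D0 range, and was then not past the threshold (exact permutation adjusted p = 0.0688). As deposited, Tubb6 RPKM was higher in YC than in vehicle livers while its share of beta tubulin was lower. Tubb2a and Tubb2b together made up 38.1% ± 3.41 (SD, n = 7) of beta tubulin in D0, 29.0% ± 7.30 (SD, n = 8) in vehicle and 39.2% ± 3.47 (SD, n = 7) in YC livers. YC livers were 10.2 points above vehicle livers (exact permutation adjusted p = 0.0128), 12.02 points among livers with Y-linked transcripts, and 1.11 points above D0 livers (exact permutation adjusted p = 0.581).

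The bulk of the remaining beta tubulin came from Tubb4b and Tubb5. Tubb4b was at 287 ± 43.9 RPKM (SD, n = 7) in D0, 155 ± 39.8 (SD, n = 8) in vehicle and 365 ± 163 (SD, n = 7) in YC livers, and rose by 1.12 (limma adjusted p = 0.000518) from vehicle to YC livers. Tubb5, the isotype common in dividing cells, was at 32.0 ± 6.07, 56.2 ± 14.4 and 83.0 ± 14.1 RPKM in the same groups. Its YC to vehicle rise of 0.58 (limma adjusted p = 0.00449) was not called after scaling, at 0.23 (limma adjusted p = 0.241). All 5 tested beta tubulins of 8 rose from vehicle to YC livers as deposited, beside 44.6% of all genes. After scaling 3 of the 5 rose, beside 18.2% of all genes. From D0 to vehicle livers Tubb2a, Tubb2b and Tubb4b fell, and Tubb5 and Tubb6 rose. Summed alpha tubulin RPKM was below summed beta tubulin RPKM by 0.51 ± 0.15 log2 units in YC livers (a log2 ratio of -0.51), against -0.16 ± 0.09 in vehicle and -0.21 ± 0.09 in D0 livers (SD). The YC to vehicle difference in this ratio was -0.35 (exact permutation adjusted p = 0.00131), and the YC to D0 difference was -0.30 (exact permutation adjusted p = 0.00556). Within livers of one kind these were -0.40 (with Y-linked transcripts) and -0.26 (without). The gamma tubulin Tubg1, which seeds microtubules, rose by 0.61 (limma adjusted p = 0.000902) from D0 to vehicle livers, with a YC to vehicle difference of 0.34 (limma adjusted p = 0.0501), which was called at 0.37 to 0.39 without YC liver 4 or any one of vehicle livers 3, 6 and 7.

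Microtubule partners were read from a list of 20 folding factors and regulators, 19 of them tested. From vehicle to YC livers 12 rose and 0 fell, where 44.6% of all genes rose and 6.14% fell. Their median was 0.40 against 0.31 for all genes. After scaling 4 rose and 1 fell, beside 18.2% and 16.7% of all genes, with a median of 0.07 against 0.01. The 3 with the smallest p were Map7, a microtubule-stabilising protein (1.03, limma adjusted p = 2.29e-06), Tbcel, which takes tubulin pairs apart (1.00, limma adjusted p = 1.41e-05), and Mapre2, a plus-end binding protein (0.89, limma adjusted p = 0.000215). The most abundant were Tbca, a beta tubulin chaperone, with a YC to vehicle difference of 0.30 (limma adjusted p = 0.305) as deposited and -0.05 after scaling, and Stmn1, which sequesters tubulin pairs, with -0.14 (limma adjusted p = 0.675). Stmn1 rose by 1.83 (limma adjusted p = 3.36e-06) from D0 to vehicle livers. Map7, Tbcel and Mapre2 fell in that comparison, with differences of -1.29, -2.03 and -0.95. Against D0, Tbcel was still lower in YC livers, at -1.04 (limma adjusted p = 5.43e-06). Map7 differed there by -0.25 (limma adjusted p = 0.110), and was called lower after scaling, at -0.58 (limma adjusted p = 0.000336). Mapre2 differed by -0.07 (limma adjusted p = 0.777).

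Actb and Actg1 encode near-identical cytoplasmic actins from separate chromosomes. Actb (chr5:142903115-142906754, minus strand) shared 1.1% of its 100-base windows with another gene, and Actg1 (chr11:120345690-120348542, minus strand) shared 51.1%, mostly with the gene model Gm12715, so the Actg1 level is less certain. Actb was at 307 to 501 RPKM (median 350) in D0 livers, 285 to 684 (median 454) in vehicle livers and 394 to 1244 (median 833) in YC livers. Vehicle livers covered the D0 range and reached above it. YC 4 and YC 3, at 394 and 649 RPKM, were inside the vehicle range, and the other YC livers were above it. Actb was 0.80 (SE 0.21, limma adjusted p = 0.00339) higher in YC than in vehicle livers, 0.83 among livers with Y-linked transcripts, and 0.46 (limma adjusted p = 0.0913) after median-ratio scaling, where the call was lost. Against D0 livers, Actb was 1.01 (SE 0.22, limma adjusted p = 0.000487) higher under YC, and 0.99 among livers without Y-linked transcripts. The vehicle to D0 difference was 0.20 (SE 0.21, limma adjusted p = 0.421).

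Actg1, whose promoter window held the CArG box printed above, was lowest in vehicle livers. It was at 136 to 217 RPKM (median 191) in D0 livers, 79.5 to 151 (median 115) in vehicle livers and 141 to 272 (median 221) in YC livers. Vehicle livers overlapped the bottom of both other groups. Actg1 fell by 0.64 (SE 0.16, limma adjusted p = 0.00205) from D0 to vehicle livers and was 0.88 (SE 0.16, limma adjusted p = 0.000151) higher in YC than in vehicle livers, 0.93 among livers with Y-linked transcripts. YC and D0 livers differed by 0.24 (SE 0.17, limma adjusted p = 0.234), or by -0.10 after scaling.

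The balance of the cytoplasmic actins differed between D0 and day 28 livers. Actg1 made up 29.0% to 35.3% of summed Actb and Actg1 RPKM in the D0 group, 18.1% to 26.2% in the vehicle group and 16.0% to 27.5% in the YC group. Neither day 28 group overlapped D0. The mean was 31.8% ± 2.52 (SD, n = 7) in D0, 20.7% ± 2.66 (SD, n = 8) in vehicle and 21.8% ± 4.30 (SD, n = 7) in YC livers, and both day 28 groups were below D0 (exact permutation adjusted p = 0.00131 for each). Among livers without Y-linked transcripts the YC to D0 gap was -10.01 points (exact permutation adjusted p = 0.00707). Vehicle and YC livers differed by 1.09 points (exact permutation adjusted p = 0.581). The smooth muscle actin Acta2, which activated stellate cells make, was at 0.271 to 13.5 RPKM (median 0.505) in D0 livers, 1.24 to 24.4 (median 3.92) in vehicle livers and 0.683 to 7.07 (median 3.03) in YC livers. D0 liver 5 held the 13.5 RPKM and the next D0 liver was at 0.858, and vehicle livers 1 and 3 were each at about 24 RPKM. Acta2 rose by 2.02 (SE 0.66, limma adjusted p = 0.0129) from D0 to vehicle livers, by 2.57 without D0 liver 5 and by 1.72 without vehicle liver 3. The YC to D0 difference of 1.14 (limma adjusted p = 0.167) was called, among fits that left out 1 liver, only without D0 liver 5, at 1.69 (limma adjusted p = 0.0178).

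Among 34 actin-binding and contractile partners, 17 rose and 1 fell from vehicle to YC livers, with a median of 0.31, like that of all genes (0.31). Over all genes 44.6% rose and 6.14% fell. After scaling 4 of the 34 rose and 8 fell, beside 18.2% and 16.7% of all genes. Among the risers with the smallest p were the crosslinker Actn4 (1.03, limma adjusted p = 1.93e-06) and the actin-binding adaptor Lasp1 (1.12, limma adjusted p = 1.06e-05). The gene that fell was Tmsb4x, the thymosin that holds actin monomers, by 0.96 (limma adjusted p = 0.00935), from 655 to 341 RPKM on average. Averaged over all livers, Tmsb4x and the myosin light chain Myl6 were the most abundant of the list. Myl6 differed by -0.27 (limma adjusted p = 0.195) as deposited, and was called lower after scaling, at -0.62 (limma adjusted p = 0.00547), and among livers with Y-linked transcripts, at -0.49 (limma adjusted p = 0.0487). From D0 to YC livers 22 of the 34 rose and 0 fell, against 41.2% and 12.3% of all genes. After scaling 16 rose and 0 fell, beside 25.8% and 28.6% of all genes.

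Krt8 (chr15:101996698-102004482, minus strand) and its partner Krt18 make up the hepatocyte keratin filament, and both were highest in YC livers. Krt8 was at 202 to 362 RPKM (median 257) in D0 livers, 131 to 432 (median 370) in vehicle livers and 361 to 912 (median 681) in YC livers. D0 and vehicle livers overlapped widely. YC 4 sat at the bottom of the YC group, at 361 RPKM, and the other YC livers, from 559 RPKM up, were above every other liver. The rise from vehicle to YC livers was 1.16 (SE 0.24, limma adjusted p = 0.000346), or 1.28 (SE 0.34) among livers with Y-linked transcripts. From D0 to YC livers Krt8 rose by 1.35 (SE 0.24, limma adjusted p = 6.74e-05), or 1.26 (SE 0.24) among livers without Y-linked transcripts, and the vehicle to D0 difference was 0.18 (SE 0.24, limma adjusted p = 0.522). A lincRNA, Gm36026, lies across from Krt8 on the other strand, and 16.9% of the windows of Krt8 recur in the model Krt8-ps.

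Krt18 moved with Krt8 from liver to liver. It was at 234 ± 52.6 RPKM (SD, n = 7) in D0, 280 ± 106 (SD, n = 8) in vehicle and 557 ± 146 (SD, n = 7) in YC livers, and rose by 1.05 (limma adjusted p = 0.00109) from vehicle to YC livers. The log2 ratio of Krt8 to Krt18 was 0.18 ± 0.11 in D0, 0.18 ± 0.13 in vehicle and 0.29 ± 0.12 in YC livers (SD), and no pair of groups differed past the threshold (exact permutation adjusted p = 0.121 for YC against D0, 0.138 for YC against vehicle and 0.970 for vehicle against D0). Within livers of one kind the YC to vehicle difference was 0.06 and the YC to D0 difference 0.15, neither past the threshold. Without D0 liver 1 the YC to D0 difference was 0.15 and passed it (exact permutation adjusted p = 0.0201).

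The other simple keratins are scarce in hepatocytes and known from bile ducts or gut, and they were far below Krt8 here. Krt20 was listed at 0.0231 RPKM on average in D0, 1.84 in vehicle and 24.7 in YC livers, and its YC to vehicle difference of 3.60 (SE 0.33, limma adjusted p = 2.27e-07) was the largest of the keratins. Krt23 was at 7.31, 7.92 and 21.3 RPKM and rose by 1.37 (limma adjusted p = 0.000295) from vehicle to YC livers. Krt19, the bile duct keratin, was at 1.65, 7.48 and 17.9 RPKM, and its rise of 1.08 (limma adjusted p = 0.0191) was not called after scaling, at 0.75 (limma adjusted p = 0.109), or without YC liver 2, at 0.91 (limma adjusted p = 0.0520), and was 1.88 among livers with Y-linked transcripts. From vehicle to YC livers 5 of the 6 simple keratins rose (4 after scaling), with a median of 1.12. Over all genes 44.6% rose (18.2% after scaling). From D0 to YC livers all 6 rose under both scalings, where 41.2% of all genes rose (25.8% after scaling).

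Vim (chr2:13573927-13582826, plus strand) was the only member called lower in YC than in vehicle livers as deposited. It was at 8.89 to 21 RPKM (median 14.4) in D0 livers, 29.6 to 106 (median 43.7) in vehicle livers and 21.6 to 48.6 (median 29.5) in YC livers. Every day 28 liver was above every D0 liver, an order found for 11.2% of tested genes with vehicle and for 19.4% with YC livers. Vehicle liver 3 was far above the other vehicle livers, the next being at 58.1 RPKM. Vim rose by 1.63 (SE 0.22, limma adjusted p = 2.15e-06) from D0 to vehicle livers, and by 1.46 without vehicle liver 3. It rose by 1.02 (SE 0.23, limma adjusted p = 0.000664) from D0 to YC livers, and by 0.97 (SE 0.24) among livers without Y-linked transcripts. The fall of 0.61 (SE 0.22, limma adjusted p = 0.0254) from vehicle to YC livers rested on few libraries. It was -0.44 (limma adjusted p = 0.0553) without vehicle liver 3, between -0.57 and -0.53 and not called without any one of YC livers 1, 6 and 7, and -0.55 (limma adjusted p = 0.155) among livers with Y-linked transcripts. After median-ratio scaling it was -0.95 (limma adjusted p = 0.00205).

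In bulk liver, fewer cells of a type and less RNA per cell cannot be told apart, and this bears on Vim and on Tuba1a, Tmsb4x and Acta2. Over all tested genes 28.2% rose and 29.9% fell from D0 to vehicle livers. From vehicle to YC livers 44.6% rose and 6.14% fell (18.2% and 16.7% after scaling). All 10 macrophage markers rose from D0 to vehicle livers and from D0 to YC livers, where 41.2% of all genes rose. From vehicle to YC livers 3 of the 10 fell and 0 rose (6 and 0 after scaling). The fallers were led by the complement genes C1qb (-0.71, limma adjusted p = 0.0185) and, among the most abundant, C1qc (-0.66, limma adjusted p = 0.0316). The macrophage markers summed to 174 to 352 RPKM in D0, 613 to 2084 in vehicle and 438 to 1075 in YC livers. From D0 to vehicle livers 9 of 10 neutrophil, 5 of 7 tested biliary and 5 of 8 tested lymphocyte markers also rose, and 0 fell. Of 8 sinusoidal endothelial markers 2 rose and 1 fell, and of 8 hepatocyte markers 3 rose and 1 fell. Of 12 stellate and fibroblast markers, 9 rose and 1 fell from D0 to vehicle livers, and 4 rose and 0 fell from vehicle to YC livers (2 and 1 after scaling, with the median going from 0.11 to -0.21), with summed RPKM of 114 to 140, 151 to 404 and 146 to 585. The most abundant of them, Dcn and Col3a1, differed by 0.50 (limma adjusted p = 0.115) and -0.31 (limma adjusted p = 0.50) between YC and vehicle livers, and Pdgfra rose by 0.84 (limma adjusted p = 0.00132). Of the 8 lymphocyte markers tested, 5 fell and 0 rose from vehicle to YC livers under both scalings, with Cd3d at -1.1 (limma adjusted p = 0.000708), Nkg7 at -0.89 (limma adjusted p = 0.0209) and Ptprc at 0.11 (limma adjusted p = 0.575), or -0.19 after scaling. None of these lists had a gene at 0 in every library of a group, and their part in the Vim, Tuba1a, Tmsb4x and Acta2 results was not tested.

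Beside the tubulins, actins and keratins that rose under YC, other lists were read as well. From vehicle to YC livers 44.6% of all tested genes rose and 6.14% fell, or 18.2% and 16.7% after scaling. Of 7 tested biliary markers 3 rose and 0 fell from vehicle to YC livers (1 and 0 after scaling), led by Bicc1 (1.09, limma adjusted p = 0.000277), while the most abundant, Spp1, differed by 0.01 (limma adjusted p = 0.978), or -0.34 after scaling. The summed biliary RPKM was 34.3 to 59.2 in D0, 132 to 352 in vehicle and 126 to 357 in YC livers, below that of Krt8 alone in YC livers. Of 10 neutrophil markers 5 rose (3 after scaling), led by Mpo (2.29, limma adjusted p = 1.99e-05). Their summed RPKM was 5.06 to 57.8 in D0, 46.0 to 168 in vehicle and 40.5 to 406 in YC livers, and the most abundant, S100a9 and S100a8, differed by 0.81 and 0.73 (limma adjusted p = 0.197 and 0.274). Of 8 sinusoidal endothelial markers 1 rose and 2 fell (0 and 4 after scaling), Ehd3 at -0.48 (limma adjusted p = 0.00712) and Clec4g at -0.55 (limma adjusted p = 0.0343). Hepatocyte markers, which identify the tissue, were the most abundant of all lists, and 5 of 8 fell from vehicle to YC livers under both scalings. Apoa2 fell by 1.33 (limma adjusted p = 2.42e-06) and Alb by 1.1 (limma adjusted p = 0.000177), and Apoa1 differed by -0.02 (limma adjusted p = 0.904). The part of these cell types in the tubulin, actin and keratin results was not tested.

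Set against each other, the mesenchymal and the hepatocyte filament gave a ratio that was highest on average in vehicle livers. The log2 ratio of Vim to Krt8 was -4.90 to -3.57 in D0 livers (median -4.11), -3.64 to -1.75 in vehicle livers (median -2.67) and -5.29 to -3.61 in YC livers (median -4.76). The lowest vehicle liver lay below the highest D0 and the highest YC liver, so the ranges overlapped at that end. The YC to vehicle difference was -1.78 (exact permutation adjusted p = 0.00131), and -1.83 among livers with Y-linked transcripts (exact permutation adjusted p = 0.0141). Vehicle livers were 1.48 above D0 livers (exact permutation adjusted p = 0.00131), and YC and D0 livers differed by -0.30 (exact permutation adjusted p = 0.375).

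**Figure D4:**
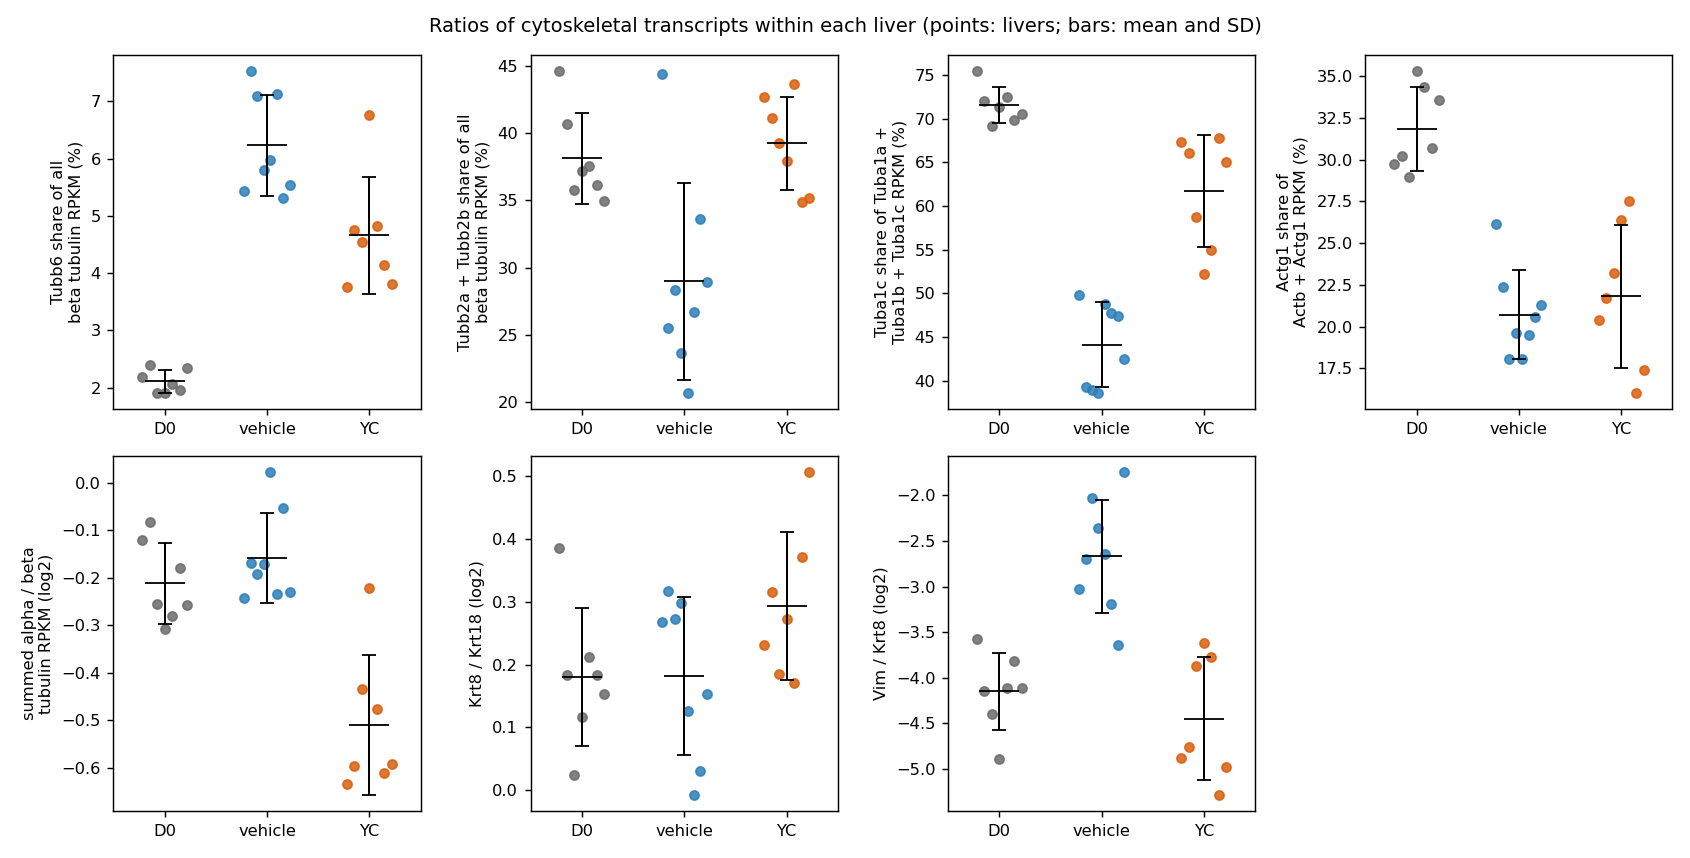
The 7 ratios of cytoskeletal transcripts within each liver (points: livers in replicate order, linear axes that do not start at 0; black: mean and SD, n = 7, 8 and 7). The Tuba1c share of the 3 Tuba1 genes falls into 3 groups that do not overlap, the Actg1 share separates D0 from day 28 livers, and the ratio of Vim to Krt8 is highest in vehicle livers.

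Remaining intermediate filament genes were read from a list of 9, of which 7 were tested. From vehicle to YC livers 3 rose and 1, Vim, fell. Over all genes 44.6% rose and 6.14% fell (18.2% and 16.7% after scaling). After scaling 2 rose (Lmna and Plec) and 3 fell, Vim with Des (-1.1, limma adjusted p = 0.0439) and Nes (-0.43, limma adjusted p = 0.0264), which differed by -0.79 (limma adjusted p = 0.119) and -0.21 (limma adjusted p = 0.260) as deposited. Nes was outside the naming rule and is named after its values were seen. The nuclear lamin Lmna was at 32.5, 47.1 and 107 RPKM in D0, vehicle and YC livers and rose by 1.14 (limma adjusted p = 8.4e-05). Plec, the plectin that ties keratin filaments to the cell edge, was at 11.7, 5.35 and 12.2 RPKM and rose by 1.12 (limma adjusted p = 0.000178), and Lmnb1 rose by 0.45 (limma adjusted p = 0.0447), not called after scaling (0.16, limma adjusted p = 0.520). Des, the muscle and stellate cell filament, was at 74.2 RPKM in vehicle liver 3 and at 3.23 to 6.00 in the other vehicle livers.

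Within a group, the transcripts tended to be high or low in the same livers. As deposited, YC 4, the YC liver with the highest Fah (407 RPKM), was the lowest of the 7 YC livers for 9 of the 10 members, Vim being the exception. YC 6, with Fah at 41.3 RPKM, was the highest for 6. Vehicle liver 3 was the highest of the vehicle livers for 7 members, D0 liver 5 the highest of the D0 livers for 6 and D0 liver 6 the lowest for 6. These ranks depend on library scaling: the factor that median-ratio scaling divides by was 1.01 in YC 4 and 1.18 to 1.27 in the other YC livers. After group means were removed, Pearson's r over the 22 libraries was between 0.28 and 0.88 for the 36 pairs without Vim (median 0.72), while the 9 pairs with Vim had a median of 0.24. The closest pairs were Tubb2a with Tubb2b (0.88), Tuba1b with Tubb6 (0.86) and Tuba1c with Tubb2a (0.85). Vim went most closely with Tuba1a (0.79), and its r with Tuba1c was -0.0025. Points of a library share its depth and scaling, and Tubb2a and Tubb2b share sequence, so these values describe the table only.

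Likeness was ranked only among genes averaging at least 5 RPKM in a group. Outside the lists, the genes most like the mean of the 10 standardised members, by Pearson's r of log2 values over 22 libraries, were Mrap (0.91), Psmc4 (0.90), Hist2h2aa1 (0.90), Snx1 (0.90) and Hist1h4a (0.90). For single members the closest genes were Krt18 for Krt8 (0.99), Psmc4 for Actb (0.97), Cdkn2b for Tuba1c (0.96), Slc2a1 for Tubb2a (0.96), Procr for Tubb6 (0.95), Cdca3 for Vim (0.94), Hn1 for Tuba1b (0.94), Tkt for Actg1 (0.91), Cdkn1a for Tubb2b (0.90) and Prkcdbp for Tuba1a (0.89). With group means removed, the values for Krt18 with Krt8 and Psmc4 with Actb were 0.97 and 0.94.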

How the data were processed

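Whole-liver polyA RNA-seq was analysed for 22 livers of Fah-/- mice (7 D0, 8 vehicle, 7 YC). The vehicle and YC mice had been transplanted with td-Hepatocytes. The authors deposited 1 table of RPKM values with 18716 rows. The submitters' processing notes name TopHat 1.4.1, Cufflinks 1.3.0 and mm10, with no role given. The sources used here do not say how reads shared by near-identical genes were counted or whether strand was used. RPKM values are not counts. Low values gave whole reads at the best depth for 32.5% to 40.2% of 355 to 540 values per library (tolerance 0.03), against 4.25% to 4.80% at other depths, too few for a count test, so the depths are estimates.

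Groups came from the labels. The members and gene lists, and the tests, were chosen with earlier results of these data known. The 12537 genes that reached 0.5 RPKM in 7 or more libraries were tested on log2(RPKM + 0.5) with limma 3.58.1 (trend and robust, 1 model over 3 groups, Benjamini-Hochberg over all tested genes, threshold 0.05). The pseudocount understates changes of low genes such as Tubb2b. The 7 ratios were compared with exact two-sided permutation tests, adjusted over 21. The script was tested on simulated data. Named genes were the 10 members, family genes averaging 5 RPKM or more in a group or called in YC minus vehicle, and from other lists the most abundant and smallest-p genes, of which 1 is not reported here. Alternatives covered scaling (median-ratio, quantile, equal total), pseudocount, filters, array weights, the 2 groups compared only, the replicate number as a block, and leaving out livers. One was added after seeing the data: YC minus D0 in livers without Y-linked transcripts. The labels name no pairing by replicate number. With group means removed, 5 of 21 pairs of same-numbered livers had r over 0.1. Differently numbered livers were not compared, so this cannot exclude a shared batch.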

Additional observations from a re-analysis of the deposited data

Results flagged for a closer look

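Of 51 groups of values checked for a liver far from the others, 2 were marked, where chance marks about 1 in 20. Tubb2b in D0 liver 6 was at 1.42 RPKM, and the nearest D0 liver was at 3.21 RPKM. The Tubb6 share of beta tubulin in YC liver 4 was 6.76%, and the nearest YC liver was at 4.82%.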

How the results depend on the processing

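Of the 30 differences of single members, 21 kept their side of the threshold under every alternative and leave-one-out fit run for them, and none that was called changed sign. The number of members called lower from vehicle to YC livers, 1 as deposited, was 2 under either median-ratio scaling or quantile normalization, 0 with equal totals, without YC livers 6 and 7 and among livers with Y-linked transcripts, and 0 to 2 when 1 liver was left out. With equal totals Tuba1b was called higher from vehicle to YC livers (0.37) and was no longer called from D0 to vehicle livers (0.30), and the fall of Vim was -0.51 and not called. With array weights the YC to D0 differences of Tubb2a (0.66) and Tubb2b (0.88) were called. The labels name no pairing of the samples by replicate number. With the number as a block, and vehicle liver 8 left out, no member's call changed. The ratios were then tested by exact sign flips of the differences between same-numbered livers. That test cannot give p-values as small as the main one. Under it 3 ratio results missed the threshold. For YC to vehicle these were the Tubb6 share (-1.67 points, sign-flip adjusted p = 0.0505) and the Tubb2a and Tubb2b share (10.2 points, sign-flip adjusted p = 0.0703). For YC to D0 it was the log2 ratio of alpha to beta tubulin (-0.30, sign-flip adjusted p = 0.0505). Without YC livers 6 and 7 the Tubb6 share difference was -1.3 points. For the log2 ratio of Krt8 to Krt18, YC minus D0 ran from 0.078 to 0.15 with 1 liver left out. The cause of these changes was not tested. Depth limits the transcripts at a few RPKM, such as Tubb2b, most.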
